A study of Homo sapiens with 2 samples.

Results

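The S-phase progenitors of human cerebral organoids were described here as 400 barcodes of a single-cell library and 400 barcodes of a single-nucleus library, selected on their transcripts for 9 genes of DNA replication. A barcode, which stands for 1 cell or nucleus, entered the choice with more than 5000 transcripts in cells or more than 2000 in nuclei and a mitochondrial share of at most 20%. At most 1 of the mitotic genes CENPE, ASPM, KIF14 and AURKB could be detected, and at least 3 of the 9 replication genes HELLS, ATAD2, BRIP1, CLSPN, DTL, MCM4, MCM6, POLA1 and RRM2 had to be. The 400 barcodes with the highest summed count of the 9 genes over all transcripts of the barcode, the score, were taken in each library. They made up 5.90% of the 6779 cells and 3.52% of the 11375 nuclei that passed the depth and mitochondrial limits. All other passing barcodes, 6379 cells and 10975 nuclei, served as the reference.

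The organoids were grown from H9, an established line of human embryonic stem cells, and profiled by split-seq, in which transcripts are tagged by rounds of barcoding inside fixed cells. The cell library pooled cerebral organoids made with a commercial kit (CO) at days 45, 55 and 70, organoids dissociated at day 45 and reaggregated (DISS) at days 48, 55 and 70, and organoids taken out of Matrigel at day 13 and constrained in 3% agarose (CONS) at day 55. The nucleus library held day 45 CO nuclei, prepared from whole frozen organoids and from single-cell suspensions, under labels that also name dissociated and embedded treatments. No table used here tied a barcode to a condition, day or organoid, so each library was 1 sample without replicates, no conditions were compared, and no p-value is given. The libraries held 1303455 and 197446 barcodes with 254967545 and 82339738 transcripts, most of them empty background barcodes. Of the passing barcodes, 19 carried a name found in both libraries, and none of the members did. Intervals below are exact 95% intervals that cover counting error only, and values over the 8 sub-libraries of cells or the 2 of nuclei measure technical spread.

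In S phase a cell copies its genome once. Origins are licensed in G1 by the origin recognition complex, CDC6, CDT1 and the MCM2 to MCM7 helicase, then fired by CDC45 and the GINS complex, and DNA polymerases, the PCNA clamp and a supply of deoxynucleotides carry the forks forward. Most of these genes are transcribed under E2F factors once cyclin-dependent kinases have inactivated RB. In the developing cortex, radial glia divide at the ventricular surface but replicate their DNA with the nucleus moved away from it, so S-phase and mitotic progenitors occupy different depths of the ventricular zone.

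Promoters of cell cycle genes often carry short elements that go with their phase, and 6 windows are printed here to show them. E2F1, GINS2 and ZNF367 were higher in the members, and so was MCM6, a gene of the choice whose level the choice imposes. Of the pair with a later-phase element, NCAPG was higher in both libraries. CDC20 was lower in cells, from the few member counts given below. Each window holds the 160 bases before the transcription start in RefSeq (GRCh38.p14), 5′ to 3′ on the strand of the gene, and none overlapped an annotated exon. They lie at chr2:135876444-135876603 (MCM6, minus strand), chr20:33686386-33686545 (E2F1, minus), chr16:85688955-85689114 (GINS2, minus), chr9:96418371-96418530 (ZNF367, minus), chr1:43358821-43358980 (CDC20, plus) and chr4:17810819-17810978 (NCAPG, plus). Capitals mark an E2F element (TTTCCCGC, TTTCGCGC, TTTGCCGC or TTTGGCGC, on either strand) in the first 4 and a CHR element (TTTGAA, on either strand) in the last pair.
MCM6: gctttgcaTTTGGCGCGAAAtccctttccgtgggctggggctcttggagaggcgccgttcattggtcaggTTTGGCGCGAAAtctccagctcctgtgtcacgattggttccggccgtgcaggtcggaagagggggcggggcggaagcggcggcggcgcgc
E2F1: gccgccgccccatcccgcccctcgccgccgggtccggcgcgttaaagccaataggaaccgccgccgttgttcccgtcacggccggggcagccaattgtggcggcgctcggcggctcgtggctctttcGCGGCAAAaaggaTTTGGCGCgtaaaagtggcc
GINS2: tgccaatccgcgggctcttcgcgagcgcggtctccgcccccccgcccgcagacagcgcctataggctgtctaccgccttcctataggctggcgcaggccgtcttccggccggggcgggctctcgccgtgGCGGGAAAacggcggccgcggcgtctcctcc
ZNF367: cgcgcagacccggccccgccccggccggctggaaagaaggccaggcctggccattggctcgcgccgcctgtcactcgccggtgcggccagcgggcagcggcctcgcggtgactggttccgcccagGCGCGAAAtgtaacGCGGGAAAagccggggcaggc
CDC20: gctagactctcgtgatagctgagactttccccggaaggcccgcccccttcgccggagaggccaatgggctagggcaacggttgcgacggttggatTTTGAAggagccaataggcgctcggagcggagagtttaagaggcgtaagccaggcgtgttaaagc
NCAPG: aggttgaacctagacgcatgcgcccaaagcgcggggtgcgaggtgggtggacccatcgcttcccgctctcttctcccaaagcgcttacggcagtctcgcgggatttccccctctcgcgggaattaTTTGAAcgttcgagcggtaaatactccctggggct
The CHR is an element of mitotic gene promoters, and E2F elements are typical of G1/S genes. Searched over the same 300-base window around every start in the RefSeq table, 250 bases before to 50 after, the E2F letters occurred in 3.31% of 35116 promoters and in 39 of the 130 promoters matched to 91 of the 109 genes of the 7 replication lists used below. They occurred in 4 of the 40 promoters of late S to mitosis genes and in 2 of the 17 promoters of p53 response genes. None of the 29, 17 and 6 promoters of radial glia, excitatory neuron and choroid plexus markers held them. These marker sets are too small to be told apart from the share over all promoters. The CHR letters occurred in 15.2% of all promoters, 8.46% of replication promoters and 30 of the 40 promoters of late S to mitosis genes. Among promoters of genes tested in both libraries, E2F letters occurred in 4.78% and CHR letters in 11.2%. The letters CCAAT, searched likewise, occurred in 34.6% of all promoters, 49.2% of replication promoters and 70.0% of late S to mitosis promoters. Their share was 70.6% in p53 response, 52.9% in excitatory neuron and 41.4% in radial glia promoters. A match describes letters and not a bound site, and the motifs were searched after the expression values had been seen.

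Because the members were chosen by the 9 replication genes, the levels of those genes are a description and not a result. The 9 genes summed to 2978 counts per 1000000 transcripts (CPM) in member cells against 820 in the reference, and to 5171 against 1099 in nuclei. The lowest score taken in cells was 15.96 per 10000 transcripts (17 of 10649) and the next one left out was 15.94 (10 of 6273). In nuclei these were 42.08 (22 of 5228) and 42.05 (11 of 2616). The limit therefore lay within a continuous range of scores. The median score was 26.1 per 10000 in member cells and 4.84 in their reference, and 50.1 and 5.27 in nuclei. Member cells were shallower than the reference, with a median of 7983 transcripts (5007 to 38962) against 11077, and member nuclei had 4221 (2012 to 12222) against 4683. Their median mitochondrial shares were 2.65% against 2.24% in cells and 0.0648% against 0.0878% in nuclei.

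A member typically held transcripts of 7 of the 9 genes in cells and 6 in nuclei, against 3 and 1 in the reference, and all 9 were found in 43 member cells and 17 member nuclei and in 331 cells and 87 nuclei of the reference. POLA1, the catalytic subunit of the polymerase that starts each new strand, gave 28.2% of the summed score in cells and 33.3% in nuclei. HELLS, a chromatin remodelling helicase, gave 20.7% and 12.5%, and BRIP1, a helicase that works with BRCA1, gave 11.8% and 14.3%. POLA1 stood at 839 CPM against 297 in cells and 1722 against 441 in nuclei. DTL, which directs the destruction of CDT1 during replication, had the largest ratio of the 9 in both libraries, at 205 against 37.4 and 380 against 60.2. RRM2, the regulated subunit of ribonucleotide reductase, stood at 287 against 97.7 and 888 against 165. Each of the 9 was higher in the members in 8 of 8 sub-libraries of cells and 2 of 2 of nuclei, which the choice itself imposes.

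**Figure D1:**
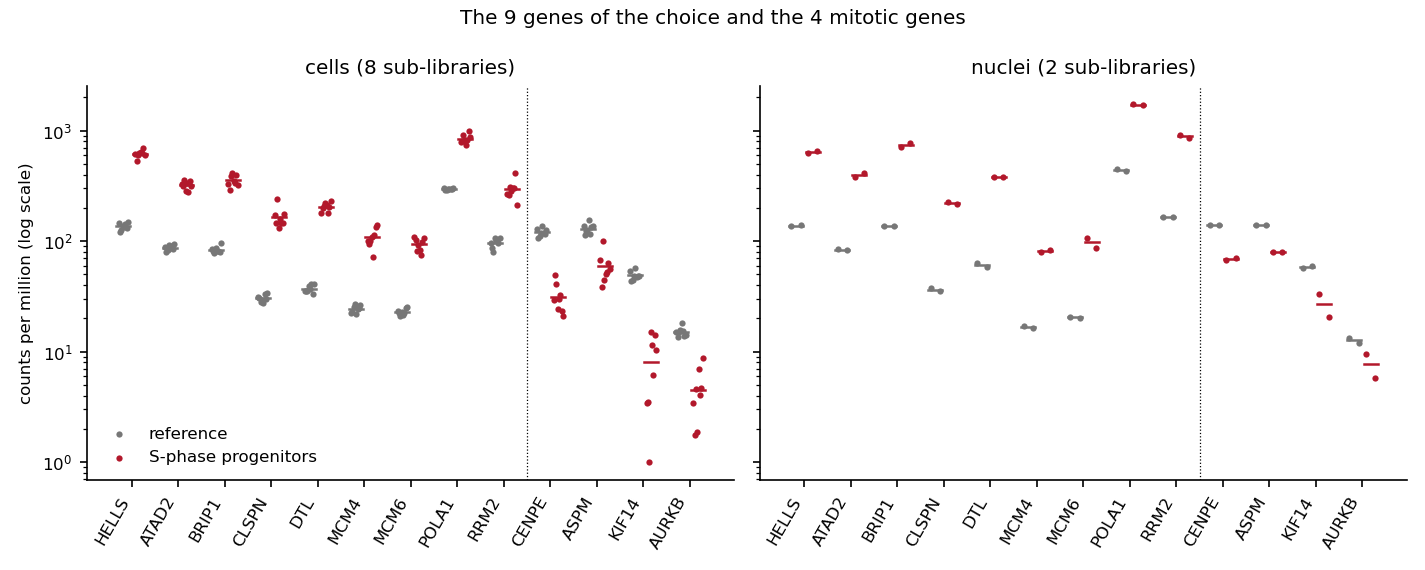
CPM (log axis) of the 9 genes used to choose the members and the 4 mitotic genes used as a limit, in members and reference of cells (left) and nuclei (right). Points are sub-libraries and lines their means. The 1 sub-library with 0 counts (KIF14 in cells) is drawn at 1. The 9 genes lie above the reference in every sub-library.

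A measure less tied to the choice was obtained by leaving each gene out in turn and choosing 400 barcodes by the other 8. The gene left out was still higher in all 18 cases. In cells, log2 ratios ran from 1.34 for POLA1 (ratio 2.53, 2.44 to 2.63) to 2.34 for DTL (5.07, 4.69 to 5.49), and in nuclei from 1.59 for POLA1 to 2.34 for DTL. RRM2 gave 1.44 in cells and 1.85 in nuclei. The barcodes chosen without a gene shared 358 to 391 members with the original 400 in cells and 309 to 383 in nuclei. All 9 genes were counted in the same barcodes, so these values are not independent of depth. The 9 genes were also picked together with earlier results of these data known, and most chosen barcodes stayed the same. The direction was therefore largely set in advance, and the values are a description and no test.

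Among genes at 5 CPM or more over all passing barcodes, more were lower in the members than higher. Of 14310 genes at 5 CPM or more in cells, leaving out the 13 genes of the rule, 2.34% (335) were at least 2-fold higher in the members and 6.29% (900) at least 2-fold lower, and in nuclei 3.73% (476) of 12748 were higher and 10.5% (1342) lower. The median log2 ratio over these genes was -0.08 in cells and -0.03 in nuclei. The level rests mostly on reference transcripts, so the balance of higher and lower genes depends on it. Without a level, 3062 genes were higher and 3134 lower in cells. In nuclei the order was reversed, with 3045 higher and 2595 lower. Of 12524 genes tested in both libraries, 231 were 2-fold higher in both, which is 71.5% of those higher in cells and 50.4% of those higher in nuclei. A further 552 were 2-fold lower in both (78.5% and 42.5%). A single gene was 2-fold higher in cells and 2-fold lower in nuclei, and none the reverse.

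The 7 lists of replication genes, 109 genes outside the rule, were almost wholly on the high side. In cells 79 of 105 tested (75.2%) were at least 2-fold higher, none was 2-fold lower, and the median log2 ratio was 1.46. In nuclei 84 of 104 (80.8%) were 2-fold higher, none was lower, and the median was 1.63, with 77 genes 2-fold higher in both libraries. The size of this in cells moved with the choice. Among cells over 10000 transcripts, where 400 members were taken from 1165 eligible and the lowest score was 6.72 per 10000, 7 replication genes were 2-fold higher and the median was 0.52. With 800 members at the original depth limit, down to a score of 8.51, it was 0.93. With none of the 4 mitotic genes allowed, 22 replication genes were 2-fold higher and the median was 0.70. Against a reference matched on depth it was 1.47 in cells and 1.63 in nuclei.

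Origin licensing genes had a median of 1.64 in cells, with 8 of 12 tested at least 2-fold higher, and 1.55 in nuclei, again with 8 of 12. MCM5, a subunit of the helicase, stood at 95.3 CPM against 18.5 in cells, with 68.4 to 111 over the 8 sub-libraries and a ratio of 5.15 (4.60 to 5.76), and at 86.8 against 19.4 in nuclei. CDC6, which loads the helicase, stood at 67.4 against 14.6 in cells and 60.3 against 11.1 in nuclei. The log2 ratios of MCM2 were 2.09 and 1.84, of MCM3 2.29 and 1.95, and of MCM7 1.39 and 1.16. Subunits of the origin recognition complex were not alike. ORC1, its cell cycle regulated subunit, had log2 ratios of 1.94 and 2.13 and ORC6 of 1.68 and 1.83, while ORC2 to ORC5 stayed between -0.31 and 0.54. CDT1 lay under the level tested in both libraries.

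Genes of helicase activation and the fork had medians of 1.49 in cells and 1.58 in nuclei, with 11 of 16 at least 2-fold higher in each. CDC45, which completes the active helicase, had the highest ratio of the list. It stood at 97.4 CPM against 15.4 in cells, where its sub-libraries ran from 73.0 to 123 in members and from 12.4 to 17.2 in the reference without overlap, and at 157 against 23.6 in nuclei. GINS2, another part of that helicase, had log2 ratios of 1.53 and 2.23, and MCM10, which is needed for its activation, 2.36 and 2.59. The kinase CDC7, which fires origins, stood at 1.10 and 0.99 on the same scale, and its activator DBF4 at -0.13 and 0.26. TIPIN, the partner of TIMELESS in protecting forks, stood at 0.36 and 0.48 where TIMELESS had 1.83 and 2.08.

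Of the polymerase, clamp and ligation genes, 18 of 22 were at least 2-fold higher in cells (median 1.33) and 19 of 21 in nuclei (1.63). PCNA, the sliding clamp, stood at 49.3 CPM against 17.3 in cells and 31.5 against 8.83 in nuclei. POLA2, the regulatory partner of POLA1, had log2 ratios of 1.83 and 1.81, POLE2 of the leading-strand polymerase 1.69 and 1.88, and the ligase LIG1 1.76 and 1.74. RFC1, the large subunit of the clamp loader, stood lower in the order, at 0.65 and 0.86. Nucleotide supply genes had medians of 1.21 and 1.51, with 5 and 6 of 9 at least 2-fold higher. Those making thymidine nucleotides led the list, TYMS at 2.01 and 1.98 and TK1 at 2.10 and 2.36, together with RRM1 at 1.40 and 1.51. The purine synthesis genes PAICS (0.48 and 0.65) and GART (0.35 and 0.29) were under the 2-fold limit.

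Chromatin assembly and maintenance genes had 7 of 10 at least 2-fold higher in cells (median 1.52) and 8 of 10 in nuclei (1.33). UHRF1, which brings the maintenance methyltransferase to newly copied DNA, stood at 172 CPM against 35.7 in cells and 105 against 26.7 in nuclei. That methyltransferase, DNMT1, had log2 ratios of 1.58 and 1.37. CHAF1A, of the complex that deposits histones behind the fork, had 2.13 and 1.92. The histone chaperone ASF1B had 1.90 and 2.28 and its paralog ASF1A -0.27 and 0.02.

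For G1/S control 10 of 13 tested genes were at least 2-fold higher in cells (median 1.41) and 12 of 13 in nuclei (1.56). E2F1, an activator of this program, stood at 74.7 CPM against 11.8 in cells, with 53.2 to 91.5 over the member sub-libraries and 8.40 to 13.0 over the reference, a ratio of 6.31 (5.54 to 7.17). In nuclei it stood at 52.0 against 14.3, a ratio of 3.63 (2.90 to 4.49). CCNE2, the cyclin of S-phase entry, stood at 25.8 against 5.79 and 31.0 against 5.25, while CCNE1 was under the level tested. The repressors E2F7 and E2F8, which act later in S phase, had log2 ratios of 1.42 and 1.21 in cells and 1.39 and 2.10 in nuclei. D-type cyclins, their kinases, CDK inhibitors and RB1 formed a list of mixed roles. None of the 8 tested genes was 2-fold higher in either library, near the 2.34% and 3.73% of all genes, with medians of 0.22 and 0.09. The summed level of the list was 1.31 times the reference in cells (1.27 to 1.36) and 1.27 times in nuclei (1.19 to 1.34). CDKN1A, the p53-induced CDK inhibitor, stood at 10.4 CPM against 22.8 in cells (log2 ratio -1.13) and at -0.41 in nuclei. The 11 tested genes of the p53 response had medians of -0.37 and -0.21.

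Fork protection and repair genes had 20 of 23 at least 2-fold higher in each library and medians of 1.64 and 1.85. Their summed level was 2.73 times the reference in cells (2.68 to 2.78) and 3.14 times in nuclei (3.07 to 3.21). EXO1, an exonuclease of resection and mismatch repair, stood at 99.5 CPM against 22.5 in cells and 159 against 28.8 in nuclei. BRCA1 (1.77 and 1.73), BRCA2 (1.71 and 1.91), FANCA (2.05 and 1.95), BLM (1.94 and 2.26) and the checkpoint kinase CHEK1 (1.83 and 1.83) gave similar log2 ratios in both libraries. ATR, the kinase upstream of CHEK1, stood at 0.20 and 0.34.

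**Figure D2:**
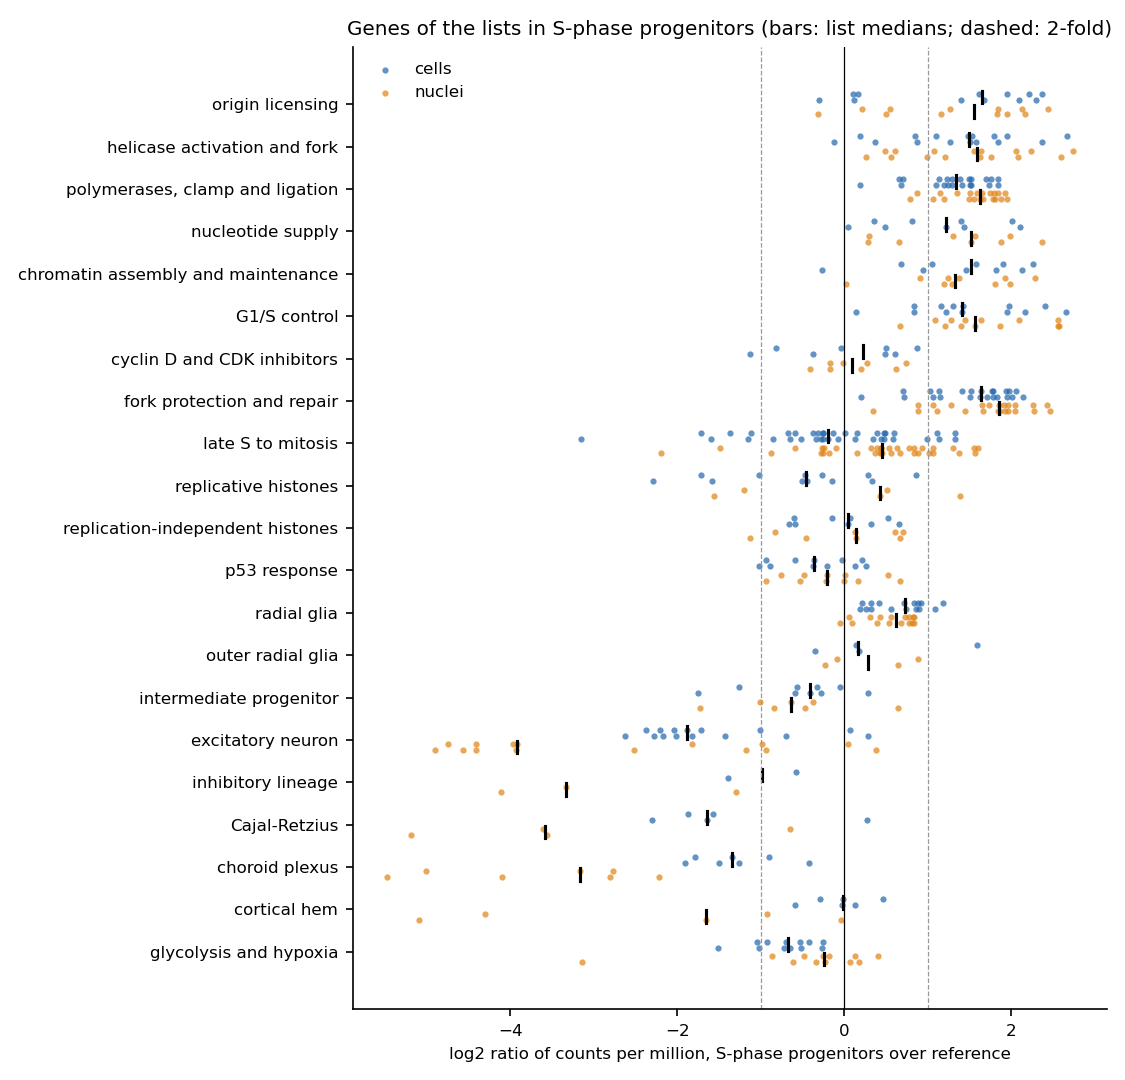
Log2 ratio of each tested gene, members over reference, by gene list in cells and nuclei. Dots are genes, bars are list medians, and dashed lines mark 2-fold. The 7 replication lists lie mostly right of the upper line, with medians of 1.21 to 1.64 in cells and 1.33 to 1.85 in nuclei. The medians of neuronal and choroid plexus lists lie left of 0, while single neuronal genes lie right of it.

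Genes of late S phase to mitosis were divided among themselves. In cells 4 of 37 were at least 2-fold higher and 6 at least 2-fold lower, with a median of -0.19, although the summed level of the list was 1.17 times the reference (1.14 to 1.19). In nuclei 8 of 36 were higher and 2 lower, with a median of 0.45 and a sum 1.74 times the reference (1.70 to 1.78). The direction of the cell median depended on the choice. Sub-library medians ran from -0.35 to 0.42 in cells, and the median was 2.04 in cells and 2.57 in nuclei with mitotic barcodes out of the reference, 1.09 in cells without the mitotic limit and -1.12 in cells with the depth limit at 10000. The genes 2-fold higher in both libraries were the condensin subunits NCAPG2 (1.32 and 1.60), SMC2 (1.32 and 1.56) and NCAPG (1.11 and 1.37) and the formin DIAPH3 (1.13 and 1.57). Those at the low end act in mitosis itself. CDC20, the activator of the anaphase-promoting complex, had 3 counts in member cells against 879 in the reference, a ratio of 0.112 (0.0231 to 0.329). CCNB1, the mitotic cyclin, stood at 5.48 CPM against 16.6 in cells and 2.77 against 12.7 in nuclei, from 21 and 5 member counts, and AURKA, a spindle kinase, had log2 ratios of -1.72 and -1.49. The proliferation markers MKI67 and TOP2A, seen from S phase to mitosis, differed in direction between libraries on the CPM scale. MKI67 stood at 173 against 215 in cells and 201 against 153 in nuclei, and TOP2A at 86.9 against 131 and 122 against 90.1. As a share of cells thinned to equal depth, neither was lower in members, with MKI67 in 44.75% against 30.7% and TOP2A in 27.25% against 24.6% of the reference. The rule kept barcodes with 2 or more of the 4 mitotic genes out of the members, and the reference held 2225 such cells and 1935 such nuclei, so these values are in part set by the choice.

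Few histone genes could be compared. Of 65 replicative histone genes, whose messages end in a stem-loop in place of a poly(A) tail, 12 in cells and 5 in nuclei passed the level. None of these was 2-fold higher in cells, where 4 were 2-fold lower and the median was -0.46. In nuclei 1 was 2-fold higher and 2 were 2-fold lower, and the median was 0.42. The linker histone H1-5 stood at 17.8 CPM against 9.83 in cells and 16.0 against 6.14 in nuclei, while H2AC6, a core histone, had log2 ratios of -2.29 and -1.56. Copies of these genes are near-identical in sequence, so the split of counts among them is uncertain. The replication-independent histones, which are expressed throughout the cycle, had medians of 0.05 and 0.13.

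Set against the 2225 cells and 1935 nuclei with 2 or more of the 4 mitotic genes, called mitotic barcodes here, the replication genes were still higher. The mitotic barcodes were deeper, with median depths of 16798 and 6698 transcripts. In cells the name is loose. After thinning to equal depth, 27.6% of them held neither TOP2A nor MKI67. NEUROD6, GRIA2 or STMN2 was found in 55.5% of them, against 27.0% of members and 61.4% of the reference. In this comparison 1.37% of 14173 genes in cells and 1.27% of 12437 in nuclei were at least 2-fold higher, and 4.5% and 6.24% at least 2-fold lower. Licensing genes had medians of 1.19 and 0.90, with 9 and 6 of 13 at least 2-fold higher, and fork protection and repair genes 1.15 and 0.83, with 15 and 7 of 23. RRM2 was the single rule gene under 2-fold, at 1.85 times the mitotic level in cells and 1.94 in nuclei. The choice imposes these rule gene values, since members had the highest scores and mitotic barcodes were not chosen by score. The values of the replication lists vary with the same choice and are a description. Late S to mitosis genes went the other way. Their medians were -0.79 and -1.09, none was 2-fold higher, and 12 of 37 in cells and 20 of 37 in nuclei were 2-fold lower. CCNB1 stood at -2.24 and -3.86 on the log2 scale, MKI67 at -0.98 and -1.19 and TOP2A at -1.26 and -1.19, while the condensin NCAPG2 stayed at 0.78 and 0.37. The mitotic barcodes were defined by 4 genes of the same phase, so these late values are a description. In cells the replication median of 1.14 in this comparison was 0.28 with the depth limit at 10000, which also lowers the scores taken.

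Radial glia-like barcodes without signs of division, 44 cells and 126 nuclei, were defined by at least 4 of 6 radial glia genes and no count of the 13 rule genes, TOP2A or MKI67. Against them the replication and late S to mitosis lists were higher, which this definition in part imposes, while D-type cyclins, their kinases and CDK inhibitors had medians of -0.31 and -0.44. Their median depths were 6940.5 and 3738.5 transcripts. At least 2-fold differences were common among all genes here, with 11.8% higher and 10.8% lower in cells and 12.0% and 9.23% in nuclei. Fork protection and repair genes had 22 of 23 at least 2-fold higher in each library, with medians of 2.96 and 3.89, and licensing genes 1.92 and 3.11. These ratios rest on few counts. The 23 fork protection and repair genes together had 197 counts in the radial glia-like cells and 318 in the nuclei. Genes passed the level mostly through the counts of the members, and a gene without a count in the radial glia-like barcodes gives a bound. The median of all 7 replication lists in nuclei, 3.09, was 2.35 and 2.44 without 1 sub-library or the other. Late S to mitosis genes, which were mixed against the reference, were 2-fold higher for 27 of 33 genes in cells and 32 of 33 in nuclei. Radial glia genes had medians of 0.26 and -0.27, and 6 of these 16 genes helped to define the comparison barcodes.

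**Figure D3:**
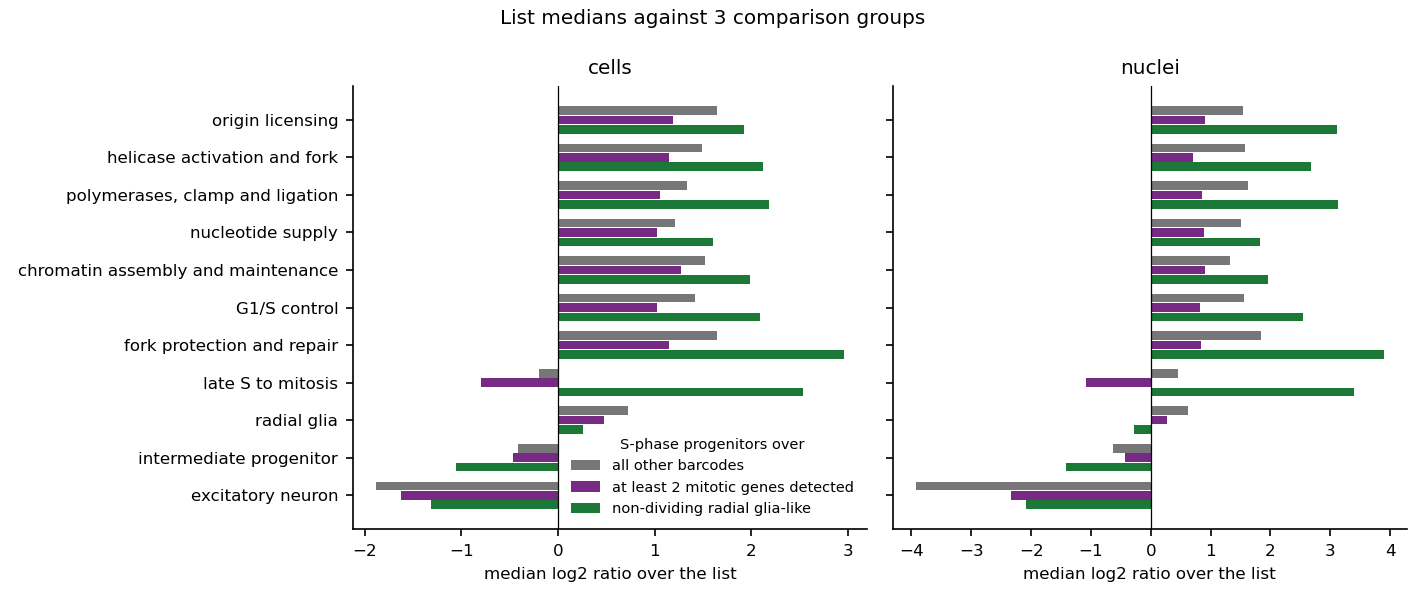
Median log2 ratio of members over 3 comparison groups (reference, mitotic barcodes, radial glia-like barcodes without signs of division) by gene list, in cells and nuclei. Bars start at 0. Late S to mitosis genes stand at -0.19 and 0.45 against the reference, at -0.79 and -1.09 against mitotic barcodes and above 0 against the non-dividing ones.

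The name progenitor was checked against lineage markers that the rule did not use. After each barcode was thinned to 5000 transcripts in cells or 2000 in nuclei, 99.0% of member cells and 97.75% of member nuclei held a transcript of PAX6, SOX2, SLC1A3 or GLI3, against 85.3% and 68.5% of the reference. The same genes gave transcripts in 87.1% and 63.5% of choroid plexus-like barcodes, the group taken here as the background for such shares. In cells that group is mixed, so it is a loose background. Its median depth there was 17899 transcripts before thinning, and after thinning TOP2A or MKI67 was found in 36.0% of it. PAX6, a regulator of cortical radial glia, is more selective. It was found in 66.5% of member cells (61.6 to 71.1) and 33.75% of member nuclei (29.1 to 38.6), against 41.8% and 21.7% of the reference and 26.7% and 5.94% of choroid plexus-like barcodes. Mitotic barcodes held it in 56.6% and 35.8%, and the radial glia-like barcodes, which PAX6 helped to define, in 77.3% and 50.8%, so in nuclei the members did not exceed either group. Other radial glia genes varied. SLC1A3 was in 59.75% of member and 51.0% of mitotic cells. SOX2 was in 51.0% of member, 39.9% of reference, 54.2% of mitotic and 42.7% of choroid plexus-like cells. VIM was in 10.5% of member, 10.4% of reference and 14.7% of mitotic nuclei. The 16 radial glia genes had median log2 ratios of 0.73 in cells and 0.62 in nuclei. All were above 0 in cells, 2 of them were 2-fold higher there and none in nuclei.

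GLI3, the hedgehog pathway repressor of the dorsal telencephalon, stood at 1806 CPM against 798 in cells, with 1613 to 2205 over the sub-libraries of the members and 745 to 835 over those of the reference, and at 2096 against 1191 in nuclei. NES, the intermediate filament of neural progenitors, had log2 ratios of 1.09 and 0.77, the Notch target HES1 0.92 and 0.77, and SOX2 0.26 and 0.56. TNC, a matrix protein of outer radial glia, stood at 47.3 against 15.8 in cells with a spread from 17.4 to 85.5 over sub-libraries, and at 0.64 on the log2 scale in nuclei. It was the single 2-fold gene of 4 tested outer radial glia genes, and HOPX and MOXD1 lay under the level tested.

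Intermediate progenitor genes did not stand with the radial glia genes. Their medians were -0.42 in cells and -0.63 in nuclei, none was 2-fold higher, and EOMES, their defining transcription factor, had log2 ratios of -0.28 and -0.37. EOMES was found in 6.75% of thinned member cells (4.50 to 9.67) and 7.95% of the reference, with 3.67% of choroid plexus-like cells. In nuclei the shares were 1.25%, 1.49% and 0.50%, which do not differ beyond their intervals. PPP1R17, a marker of the same cells, stood at -1.75 and -1.73. HES6, which is also expressed in cycling neurogenic progenitors, stood at 0.28 and 0.64.

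Postmitotic identities lay at the low end. Of 15 excitatory neuron genes, 12 were 2-fold lower in cells and 11 in nuclei, with medians of -1.88 and -3.93. Their summed level fell less in nuclei than that median, at 0.406 of the reference in cells and 0.313 in nuclei. Within the 2 sub-libraries of nuclei the medians were -2.86 and -2.67. The nuclei median was -3.47 and -3.01 without 1 sub-library or the other and -2.31 with 200 members. The cell median was -0.73 with the depth limit at 10000, -1.17 with 800 members and -2.83 with 200. With none of the 4 mitotic genes allowed it was -1.19 in cells. STMN2 and MYT1L, which mark differentiating neurons, had log2 ratios of -2.28 and -2.04 in cells and -4.74 and -4.90 in nuclei. FEZF2, a deep-layer marker, stood at 0.29 and 0.04. Even so, 27.0% of thinned member cells (22.7 to 31.6) held a transcript of NEUROD6, GRIA2 or STMN2, against 40.0% of choroid plexus-like cells, and 4.5% of member nuclei against 7.92%. The member shares lay below those of the choroid plexus-like barcodes, a mixed group in cells. They are not read here as expression, and whether they reflect it was not tested. Choroid plexus genes summed to 0.404 of the reference in cells and 0.0335 in nuclei, with the transport protein TTR in 41.75% of thinned member cells and 1.00% of member nuclei, against 49.8% and 5.55% of the reference and 86.5% and 59.7% of choroid plexus-like barcodes. Glycolysis and hypoxia genes had medians of -0.68 and -0.24. Cortical hem genes had -0.02 and -1.65 and Cajal-Retzius genes -1.65 and -3.59, from 6 or fewer tested genes each. The Cajal-Retzius median in nuclei was -2.99 without 1 sub-library and -2.31 at a level of 2 CPM. Of the inhibitory lineage 2 genes in cells and 3 in nuclei were tested, with medians of -0.98 and -3.34, and the latter was -1.86 without 1 sub-library.

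Members were also described along the score that chose them, so the order of replication levels follows from the choice and is no test. The 200 cells with the highest scores had summed levels 2.33 times the reference for licensing genes, 3.09 times for G1/S control and 3.52 times for fork protection and repair, and the other 200 had 1.69, 2.01 and 1.95 times. Late S to mitosis genes went from 1.47 to 0.863 in the same order, while radial glia genes stayed at 1.72 and 1.62. In nuclei both sets of 200 were closer, with licensing at 2.04 and 1.93 and late S to mitosis at 1.75 and 1.73. A further description splits the members by the single mitotic gene that the rule allowed, a gene of the same phase as the late list. Exactly 1 was detected in 54.25% of member cells against 23.2% of the reference, and in 58.5% of member nuclei against 14.5%. None was detected in 45.75% of member cells against 41.9%, and in 41.5% of member nuclei against 67.8%. Member barcodes with 1 such gene were deeper than those with none, with median depths of 8814 against 7606 transcripts in cells and 4488.5 against 3763 in nuclei. The 217 member cells with 1 such gene had late S to mitosis genes at 1.38 times the reference and the 183 with none at 0.869 times, while licensing was 1.95 and 2.09 times. In nuclei the 234 with 1 gene had 1.87 and the 166 with none 1.54 times, with licensing at 1.88 and 2.16. These groupings were made after the data had been seen.

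The members were also unevenly spread over the wells of the first barcoding round, which hold organoid samples of unknown condition. Among 41 wells of cells with 20 or more passing barcodes the share ran from 0 to 19.4% (18 of 93), with a median of 5.22%, and 6 wells had none. In the largest of these, none of 303 barcodes was a member, which allows a share of up to 0.990% when 3 counts are taken as the limit of a count of 0 and up to 1.21% by the exact interval. That well had a median depth of 26236 transcripts and 39.3% mitotic barcodes. The part of depth in the wells without members was not tested. The 12 wells of nuclei ran from 1.43% (24 of 1680) to 7.25% (88 of 1213), with a median of 2.95%. Sub-libraries differed less, at 5.82% ± 0.999 (SD, n = 8) in cells and 3.02% and 4.07% in nuclei. Without the well that held the most members, 286 genes were 2-fold higher and 727 lower in cells and 504 and 1476 in nuclei.

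**Figure D4:**
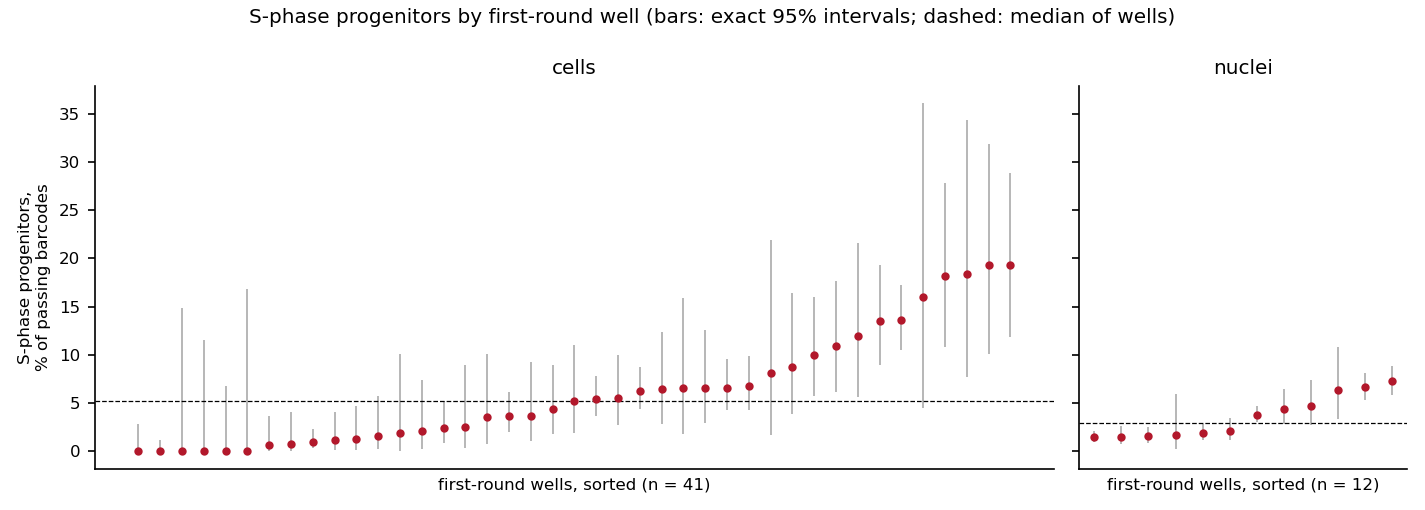
Share of passing barcodes that were members (percent) in each first-round well with 20 or more passing barcodes, for cells and nuclei. Points carry exact 95% intervals and dashed lines mark medians, 5.22% in cells and 2.95% in nuclei. Wells of cells run from 0 to 19.4% and wells of nuclei from 1.43% to 7.25%.

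Outside the fixed lists, the 15 genes highest in both libraries held several with known roles in the cell cycle. PCLAF, a PCNA-binding protein, had log2 ratios of 2.32 and 2.53, the protease FAM111B 2.40 and 2.27, the zinc finger gene ZNF367 2.22 and 2.30, and TONSL, which works at damaged forks, 2.01 and 1.83. The kinetochore and centromere genes CENPM (2.12 and 1.91), CENPU (1.97 and 2.08) and ZWINT (2.13 and 2.06) and PKMYT1, a kinase that holds CDK1 inactive (1.95 and 2.22), stood with them. E2F letters were found in 4 of the 10 promoters matched to 8 of the 15 genes, against 4.78% of promoters of genes tested in both libraries. The set is small and was picked by its ratios in these data, so this count is a description. Other genes among the 15 were of other kinds. The neurexophilin gene NXPH2 had 2.02 and 1.97, higher in 7 of 8 sub-libraries of cells, and the long noncoding RNAs LINC01224 and MIR924HG had 2.05 and 1.88 in cells and 1.90 and 1.89 in nuclei.

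Among the 10 lowest genes were GRIN1, a subunit of the NMDA receptor (-3.00 and -3.35), and CELF4, a neuronal RNA-binding protein (-2.44 and -3.85). NRSN1, PTPRN, L1CAM and SLITRK1 had log2 ratios of -3.20, -2.88, -2.55 and -2.55 in cells and no count in member nuclei. PIF1, a DNA helicase, was also among them. It had 12 counts in member cells and 1 in member nuclei, with log2 ratios of -2.74 and -5.28, and stood at -3.41 and -7.08 against mitotic barcodes, where its level was 33.2 CPM in cells. With 1 count in nuclei the ratio to the reference was 0.0257 (0.000649 to 0.143).

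Cells and nuclei differed most at a few genes in each direction, and those named here all lay lower in nuclei. Member values lay near the reference in cells and far below it in nuclei for RSPO2, a Wnt agonist (-0.29 and -5.09), the contactin-associated protein CNTNAP5 (-0.15 and -4.78) and SLIT3, a guidance ligand (0.19 and -4.51). Background barcodes of 10 to 100 transcripts in cells carried the 9 rule genes at 925 CPM, above the 820 of the reference, and in nuclei at 1144 against 1099, so the background lay near the average barcode for these genes in both libraries. The part of free RNA in the differences between libraries was not tested.

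**Figure D5:**
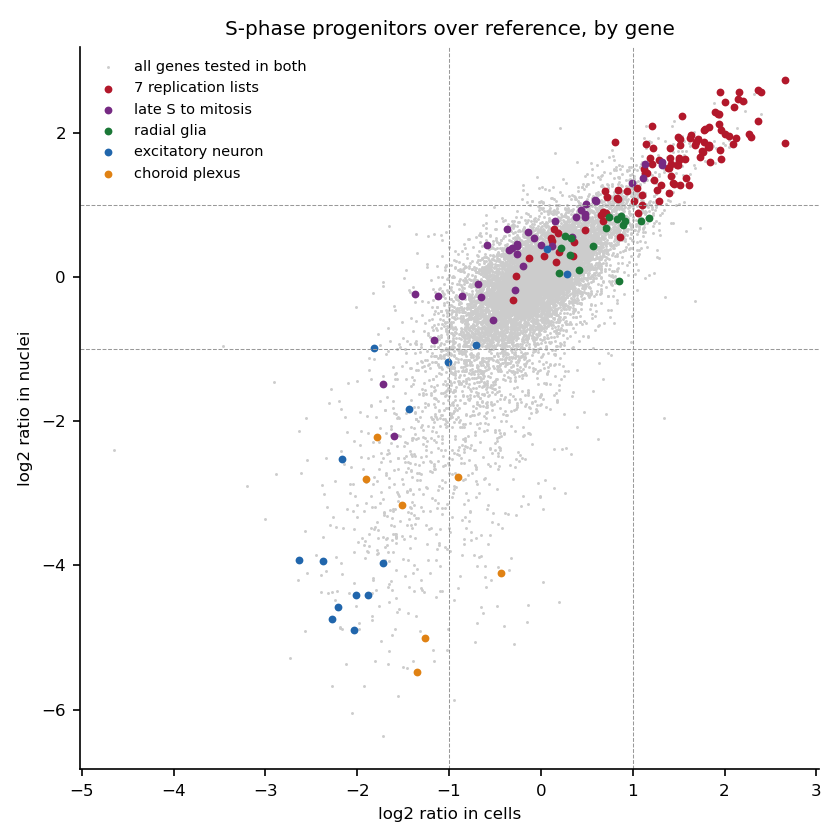
Log2 ratio of members over reference in cells (x) and nuclei (y), one point per gene tested in both. Replication list genes gather at the upper right, with medians of 1.46 and 1.63, and many neuronal and choroid plexus genes lie at the lower left, with list medians of -1.88 and -1.35 in cells and -3.93 and -3.17 in nuclei.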

How the data were processed

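Split-seq libraries of cells and of nuclei from H9 organoids were used. Per the labels and methods, reads were divided into sub-libraries (8 of cells, 2 of nuclei) before the Parse Biosciences pipeline (GRCh38, Ensembl 108). The values deposited by the authors are raw transcript counts for 62704 genes, without normalization, selection of barcodes or correction for background RNA. Totals were 254967545 and 82339738 transcripts.

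Counts were summed over members and over reference barcodes and scaled to 1000000 transcripts (CPM). A ratio of sums carries an exact conditional binomial interval and a share a Clopper-Pearson interval, both at 95% and for counting error only, since each library is 1 sample. Genes at 5 or more CPM over passing barcodes were compared, without the 13 genes of the rule, and called at 2-fold. A gene with 0 member counts was set to a floor of 3 counts, which gives a bound. No doublet caller was run, and barcodes over 3 times the median depth were left out in an alternative. For shares of barcodes, counts were thinned at random to 5000 (cells) or 2000 (nuclei), and choroid plexus-like barcodes had at least 4 of 8 marker genes.

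Genes named in the text are examples from 25 lists of roles and cell types (360 genes). Outside the lists, examples come from the 15 highest and 10 lowest in both libraries. Others come from the 5 in each direction that differed most between libraries. The members and lists were chosen with earlier results of these data known. Alternatives changed the member number, the limits of the rule, the reference, the level, the call and the sub-libraries and wells used. The scripts (Python 3.11.15 with numpy 2.4.6, scipy 1.17.1 and pandas 2.3.3, plots by matplotlib 3.10.9) were tested on simulated data. Promoters came from RefSeq and exons from GENCODE 44. Some listed genes are not reported here by name.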

Additional observations from a re-analysis of the deposited data

Results flagged for a closer look

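The median log2 ratio of late S to mitosis genes over the reference was -0.1917 in cells and 0.4476 in nuclei, on opposite sides of 0. The cell value lay within the range over sub-libraries (-0.35 to 0.42), and it was -0.03 as a mean of barcode shares. With mitotic barcodes out of the reference, both values lay above 0, at 2.04 in cells and 2.57 in nuclei. The difference between the libraries was not tested, because each is a single sample.

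The 9 rule genes were also present in barcodes of 10 to 100 transcripts, which entered no comparison, at 925.2 CPM in cells and 1144.0 CPM in nuclei.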

How the results depend on the processing

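The number of genes at least 2-fold higher and lower in member cells (335 and 900) depended on the size and limits of the choice. It was 545 and 1566 with 200 members, 102 and 215 with 800, 19 and 169 with the depth limit at 10000, 68 and 273 when none of the 4 mitotic genes was allowed, and 553 and 1434 without that limit. With mitotic barcodes taken out of the reference, 680 genes were higher in cells and 757 in nuclei, against 476. Lowering the gene level to 2 CPM gave 1517 lower genes in cells and 2094 in nuclei (1342 before), a level of 20 CPM gave 180 and 374 in cells and 235 and 622 in nuclei, and no level at all gave 3062 and 3134, and 3045 and 2595. The cause of each shift was not tested, apart from the number of genes compared, which the level sets.

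Without 1 sub-library at a time, the counts ran from 274 to 327 and from 723 to 856 in cells and from 484 to 486 and from 1327 to 1358 in nuclei. The replication median ran from 0.52 (depth limit at 10000) to 2.15 over 26 settings in cells and from 1.46 to 2.10 over 20 in nuclei. The sign of list medians was kept in 1060 of 1100 cases. These cases include the rule genes, whose sign the choice imposes, and the replication lists, which vary with the same choice. The median of the 4 mitotic genes in cells reversed from -1.87 to 0.47 without the mitotic limit and to 1.32 with mitotic barcodes out of the reference, and in nuclei from -0.93 to 0.32 and 2.19. Without thinning, NEUROD6, GRIA2 or STMN2 was found in 37.0% of member cells and 8.25% of member nuclei. TOP2A or MKI67 was found in 64.25% and 60.25% of members without thinning and in 52.5% and 38.75% after it. For TOP2A or MKI67, reference cells had 54.6% without thinning and 38.8% after it, and choroid plexus-like cells 59.3% and 36.0%. No paired test was run, because each library is a single sample. Members and reference barcodes shared sub-libraries, but these measure technical spread only, and the wells are of unknown condition.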
